A study of Camelus dromedarius with 4 samples.

Results

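Nitric oxide and cyclic GMP (cGMP) signalling in the supraoptic nucleus of the dromedary camel was described through 10 genes chosen by symbol for their place in the pathway: NOS1, NOS1AP, NOS3, DDAH1, GUCY1A2, GUCY1A3, GUCY1B3, PRKG1, PRKG2 and PDE5A. These were 10 of the 18152 symbols in the deposited table of season means and 10 of the 16053 with a mean in each season. All 10 were expressed in both seasons. Their levels differed by at most 1.53-fold between the season means, 5 being higher in winter and 5 in summer, and no gene that could be tested differed by more than the spread between libraries allowed.

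The supraoptic nucleus is a hypothalamic nucleus whose magnocellular neurones make vasopressin and oxytocin. Tissue came from age-matched adult male dromedaries of the Tergui breed, hydrated, killed for meat in January at El Oued (winter, 2 libraries) or in June at Ouargla (summer, 2 libraries), both in Algeria. Stranded total RNA was sequenced after removal of ribosomal RNA. Season, slaughter site and date cannot be told apart, and since the labels do not tie a library to an animal, the p-values measure the spread between these 4 samples only.

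Nitric oxide is made from arginine by nitric oxide synthases and diffuses to soluble guanylyl cyclase, a haem protein built of an alpha and a beta subunit, which then makes cGMP. cGMP acts through its protein kinases and through ion channels, and is broken down by phosphodiesterases. In the supraoptic nucleus of other mammals the magnocellular neurones are known for a high content of neuronal nitric oxide synthase, and nitric oxide is known to restrain their firing; in the vessels of the brain the same pathway relaxes smooth muscle.

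The libraries held between 4379162 and 6902037 reads on gene models, which were 20.7% to 27.8% of the tallied alignments. The gene models of these count files carry no names, so the 10 genes were read from the season means. Each is the mean of 2 read counts, each divided by the size factor of its library, and the reads behind it were recovered as the whole numbers that give the mean to its last digit. The recovered libraries carry no replicate number and are called by their size factors: winter A (1.33), winter B (0.946), summer A (0.922) and summer B (0.877). Levels are given below as normalized reads, that is, reads divided by the size factor. Over 7654 symbols the log2 levels of the summer libraries correlated at r = 0.579 and those of the winter libraries at r = 0.8385, with 0.7155 to 0.7712 between seasons. In the count files, winter 2 was closest to summer 2 (r = 0.9206) and winter 3 to summer 1 (r = 0.9309), while the pair within winter reached 0.8926 and that within summer 0.8429. The closest libraries by this measure were thus of different seasons, and the sources used here do not settle whether the season labels hold for every library; each season difference below is given by the labels.

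Over the 10 genes the median log2 ratio of the season means, winter over summer, was 0.0091. Over the 13808 symbols that averaged at least 10 in either season it was −0.037, with quartiles of −0.31 and 0.26. PRKG1 alone passed 1.5-fold, 1 of 10 against 22.3% of all symbols, and 0 of 10 passed 2-fold against 7.23%. The summed level of the 10 genes was 1481 in summer and 1480.9 in winter. In these bulk samples, fewer cells of a type and less RNA per cell cannot be told apart. Of the 6 genes whose reads had a single solution in both seasons, 0 passed the rule of a difference above 2-fold with an unadjusted p under 0.05 in edgeR's quasi-likelihood test, against 1.67% of the 7652 genes tested (0.849% higher in winter and 0.823% higher in summer). 0 of the 6 reached an unadjusted p of 0.05, which 1.99% of the genes tested did. The 95% interval of each of the 6 reached past 2-fold in at least 1 direction. In this test 0 of the 7652 genes passed an adjusted p of 0.05 (152 at an unadjusted p under 0.05), and 1 did with DESeq2 and 1 with edgeR's exact test. The seasons did not overlap for 3 of the 6, NOS1 and NOS3 being higher in winter and PRKG2 in summer. Over the genes tested the share was 30.5% (13.3% higher in winter and 17.2% higher in summer).

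**Figure D1:**
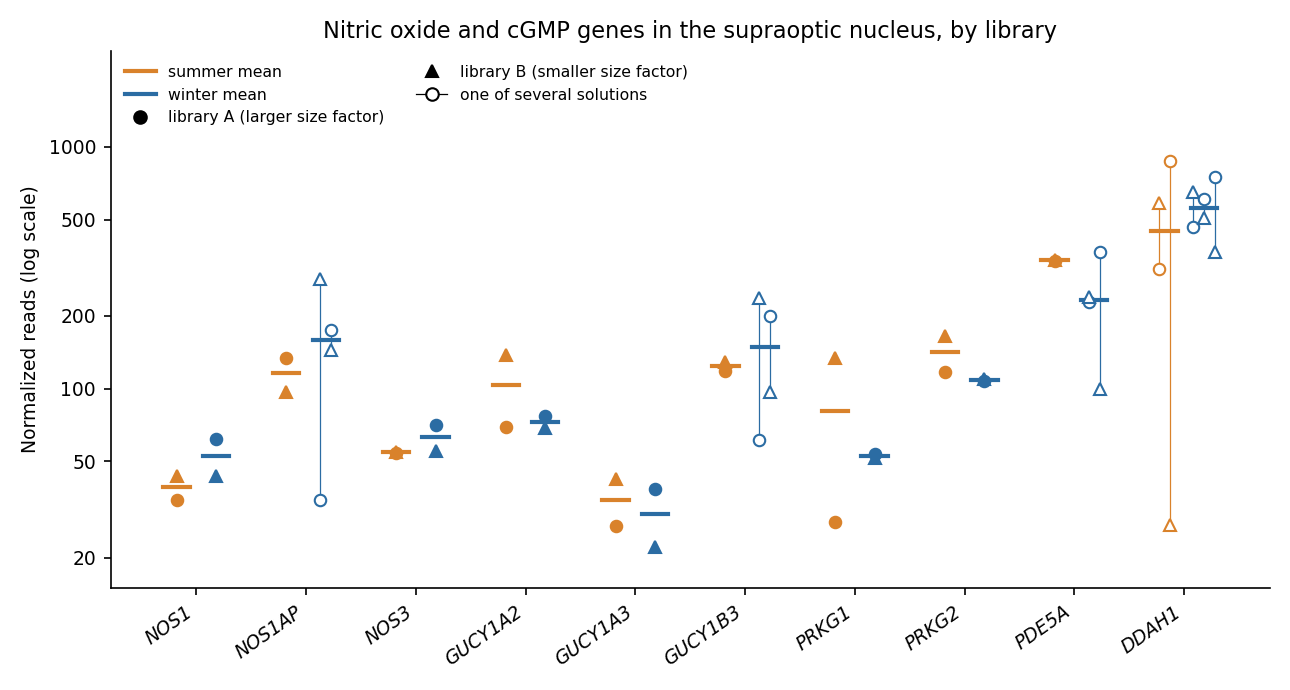
Normalized reads (log axis) of the 10 genes in each library, summer in orange and winter in blue, with bars at the season means; circles are the A libraries and triangles the B libraries, and open symbols joined by a line are alternative solutions of 1 mean. The summer libraries of PRKG1 sit at 28.2 and 133.4, on either side of both winter libraries, whereas the winter values of NOS1 sit at 43.4 and 61.9 and its summer values at 34.7 and 43.3.

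NOS1, the neuronal synthase, had a season mean of 39.0 in summer and 52.6 in winter, a 1.35-fold difference. It counted 32 reads in summer A and 38 in summer B, or 34.7 and 43.3 normalized reads. In winter A it counted 82 reads and in winter B 41, or 61.9 and 43.4 normalized reads. Winter B lay just above summer B, so that the seasons were barely separated. The fitted log2 difference was 0.44 (95% interval −0.64 to 1.54, n = 2 per season; edgeR's quasi-likelihood test, adjusted p = 0.982). The 4 neuronal markers were each higher in winter by their season means, SNAP25 by 0.76, SYT1 by 0.84, RBFOX3 by 0.91 and ENO2 by 0.19 on the log2 scale. Of the 6 magnocellular markers with means, 4 were higher in summer: putative AVP (log2 ratio −2.21), PDYN (−1.82), SIM1 (−0.55) and POU3F2 (−0.03). OTP (0.35) and OXT (0.07) were higher in winter. The part of either set in the level of NOS1 was not tested.

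NOS1AP encodes the adaptor protein that binds NOS1 and links it to other proteins. The log2 ratio of its season means was 0.46, with 115.7 in summer and 159.6 in winter. Summer A held 124 reads and summer B 85, or 134.5 and 96.9 normalized reads. The winter mean has a pair of solutions. In the first, winter A held 46 reads and winter B 269, an 8.20-fold gap in normalized reads; in the second they held 231 and 137, 174.3 and 144.9 normalized reads. The season ranges overlap under the first solution and are separate under the second. The fitted log2 difference was 0.44 under the first (interval −1.41 to 2.29) and 0.47 under the second (−0.34 to 1.27).

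NOS3, the endothelial synthase, had season means of 54.5 in summer and 63.0 in winter. It counted 50 and 48 reads in summer A and B, 54.2 and 54.7 normalized reads. In winter it counted 94 and 52, 70.9 and 55.0 normalized reads. Both winter libraries were above both summer libraries, winter B only narrowly. The log2 difference was 0.22 (−0.72 to 1.15; edgeR, adjusted p = 0.982), and 0.014 without winter A. The 7 endothelial markers summed to 1819 in summer and 1559 in winter, 2 of 7 being higher in winter. Among them KDR, the receptor for vascular endothelial growth factor, passed the rule and was lower in winter (−1.26, −2.08 to −0.44; edgeR, adjusted p = 0.982), while CDH5, the endothelial cadherin, had a log2 ratio of 0.91. The part of these cells in the level of NOS3 was not tested.

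DDAH1 breaks down asymmetric dimethylarginine, an endogenous inhibitor of the synthases. The log2 ratio of its season means was 0.31, with 449.1 in summer and 558.4 in winter. At this level a mean has several solutions, 2 for summer and 3 for winter. In the first summer solution the libraries held 289 and 513 reads, 1.87-fold apart in normalized reads, and in the second 803 and 24 reads, 31.8-fold apart. The winter solutions placed between 468.6 and 747.8 normalized reads in winter A and between 369.1 and 648.3 in winter B. The seasons overlapped under all 6 combinations, and the fitted log2 difference was 0.31 to 0.32 with intervals that together ran from −2.31 to 2.94.

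The soluble guanylyl cyclase subunits did not share a direction. GUCY1A2, an alpha subunit, had a season mean of 103.7 in summer and 72.9 in winter. It counted 64 reads in summer A and 121 in summer B, 69.4 and 137.9 normalized reads. In winter it counted 102 and 65, 77.0 and 68.7 normalized reads. Summer B stood alone, 1.99-fold above summer A, while summer A lay between the winter libraries. The log2 difference was −0.50 (−1.49 to 0.48; edgeR, adjusted p = 0.982), and it was 0.072 without summer B.

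GUCY1A3 is the other alpha subunit and had the fewest reads of the 10 genes. It counted 25 and 37 reads in summer, 27.1 and 42.2 normalized reads, and 51 and 21 in winter, 38.5 and 22.2. The libraries of the seasons alternated, with the lowest value in winter B and the highest in summer B. The log2 difference was −0.16 (−1.52 to 1.19; edgeR, adjusted p = 0.986). It turned to 0.18 without summer B and to 0.15 without winter B.

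GUCY1B3 is the beta subunit that pairs with either alpha subunit. Its season means were 123.5 in summer and 149.0 in winter. The summer libraries lay close together, with 109 and 113 reads, or 118.2 and 128.8 normalized reads. The winter mean has a pair of solutions, 81 and 224 reads or 266 and 92 reads, and both place 1 winter library below and 1 above the summer libraries. The fitted log2 difference was 0.25 (−1.10 to 1.61) or 0.28 (−0.68 to 1.25). The symbols that newer annotation gives to the subunits GUCY1A3 and GUCY1B3 had no means in the table.

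**Figure D2:**
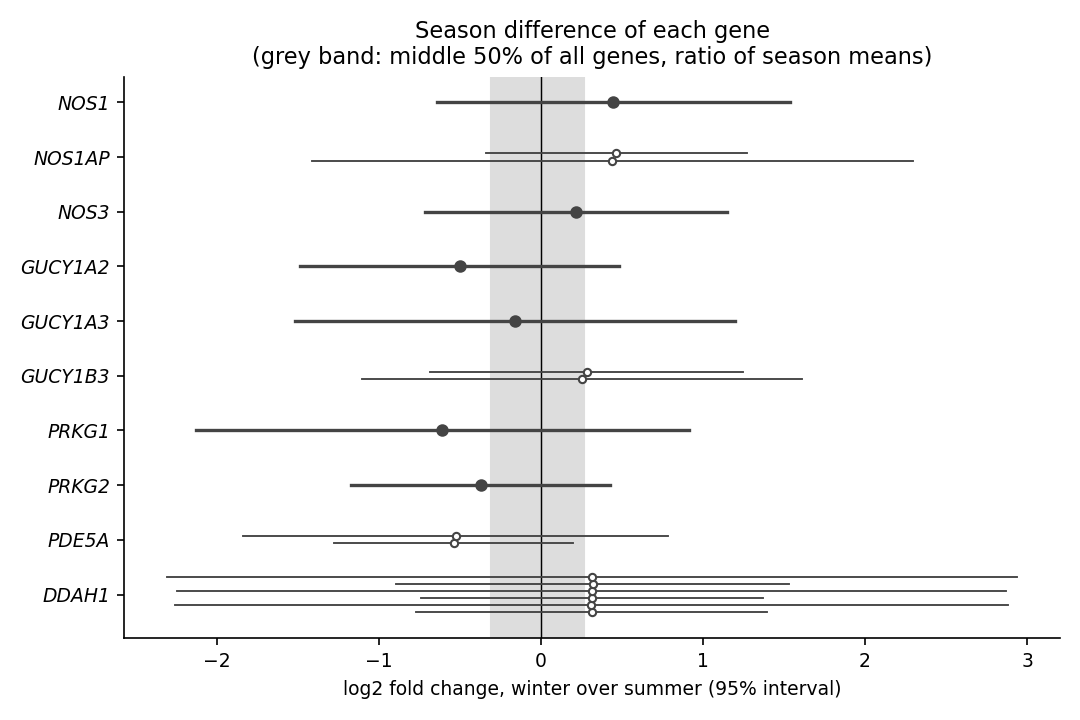
Log2 fold change of each gene, winter over summer, with its 95% interval from the edgeR fit of 2 against 2 libraries; filled points have 1 solution in reads, open points show each combination of solutions, and the grey band is the middle 50% of all symbols by the ratio of season means. Every interval crosses 0, and that of PRKG1 runs from −2.13 to 0.91.

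PRKG1, a cGMP-dependent protein kinase with a known place in smooth muscle and in neurones, had the widest season ratio and the widest gap between libraries of a season among the 6 genes tested. Its season means were 80.8 in summer and 52.7 in winter, 1.53-fold higher in summer. The winter libraries held 71 and 49 reads, 53.6 and 51.8 normalized reads. Summer A held 26 reads (exact Poisson interval 17.0 to 38.1) and summer B 117 (96.8 to 140.2), or 28.2 and 133.4 normalized reads. The winter pair thus lay between the summer libraries, which were 4.73-fold apart. The log2 difference was −0.61 (−2.13 to 0.91; edgeR, adjusted p = 0.982). Without summer A it was −1.34, and without summer B it was 0.90, so that the library left out set the direction. Without summer A the spread rests on the winter pair alone; PRKG1 then passed the 2-fold rule (edgeR, adjusted p = 0.0711), as did 15.4% of the genes tested in that fit.

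PRKG2, the membrane-bound kinase of the pair, had summer libraries 1.41-fold apart and winter libraries 1.02-fold apart. It counted 108 and 145 reads in summer, 117.1 and 165.3 normalized reads. In winter it counted 143 and 104, which came to 107.9 and 110.0 normalized reads. Both summer libraries were above both winter libraries, summer A by less and summer B by more. The log2 difference was −0.37 (−1.17 to 0.43; edgeR, adjusted p = 0.982), and it was −0.10 without summer B.

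PDE5A, the phosphodiesterase that is specific for cGMP and the target of sildenafil, had season means of 339.1 in summer and 233.4 in winter, 1.45-fold higher in summer. Its summer libraries were within 1.02-fold of each other, with 310 and 300 reads, or 336.2 and 341.9 normalized reads. The winter mean has a pair of solutions. Under the first, winter A held 302 reads and winter B 226, 227.9 and 239.0 normalized reads, and both lay below both summer libraries. Under the second they held 487 and 94, 367.5 and 99.4 normalized reads, and the seasons overlapped. The fitted log2 difference was −0.54 (−1.28 to 0.20) under the first and −0.53 (−1.84 to 0.78) under the second. The 8 markers of pericytes and smooth muscle, cells in which PDE5A and PRKG1 are known to act, summed to 1006 in summer and 1010 in winter, 3 of 8 being higher in winter; the largest ratios were those of NOTCH3 (1.13) and RGS5 (−0.83). Their part in the levels of PDE5A and PRKG1 was not tested.

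The summer libraries differed across all symbols, and most of these genes were higher in summer B, NOS3 (1.01-fold) and PDE5A (1.02-fold) only narrowly. Of the 7342 tested genes with a summer mean of at least 10, 32.5% were more than 2-fold apart. Of the 9 genes with a single summer solution, 8 were higher in summer B, NOS1AP being the exception. The share was 54.1% of the 11832 symbols with a single solution and a summer mean of at least 10, and 61.4% of the 7342 tested genes. PRKG1 alone was more than 2-fold apart, 1 of 9 against 22.7% of the 11832 symbols. GUCY1A2, at 1.99-fold, lay just under that line. PRKG1 stood at percentile 92.8 of all symbols by its log2 ratio of summer B to summer A, GUCY1A2 at 81.8 and GUCY1A3 at 73.6, while NOS3 (46.6) and PDE5A (47.2) were near the middle. In winter 1 of the 6 genes with a single solution was higher in winter B, against 45.8% of 7102 symbols, and 0 of 6 were more than 2-fold apart, against 14.1%. Summed over the 6 genes tested, the level was 330.7 in summer A, 576.7 in summer B, 409.8 in winter A and 351.1 in winter B. The tested markers of astrocytes were also higher in summer B, with a sum of 136.6 in summer A and 296.4 in summer B, as were the neuronal marker RBFOX3 (15.2 and 33.1) and the ependymal marker RSPH1 (8.68 and 75.2). Those of pericytes and smooth muscle summed to 479.3 in summer A and 354.5 in summer B. Microglial markers summed to 280.9 and 183.5, 1 of 3 being higher in summer B, and magnocellular markers to 248.3 and 288.4. Those of endothelium summed to 501.0 and 442.2, with KDR higher in summer A (327.5 and 239.4) and 2 of the 4, CDH5 and CLDN5, higher in summer B. Between the winter libraries, the tested magnocellular markers summed to 250.5 in winter A and 87.8 in winter B, and those of astrocytes to 334.3 and 156.5. Other sets were closer to level, with 291.3 and 294.0 for endothelium, 284.5 and 275.0 for pericytes and smooth muscle, and 289.0 and 298.2 for microglia. The number of gene models with a read was 52456 and 40178 in the summer count files, and 50154 and 49320 in the winter ones. The part of these cells, or of this number, in either gap was not tested.

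**Figure D3:**
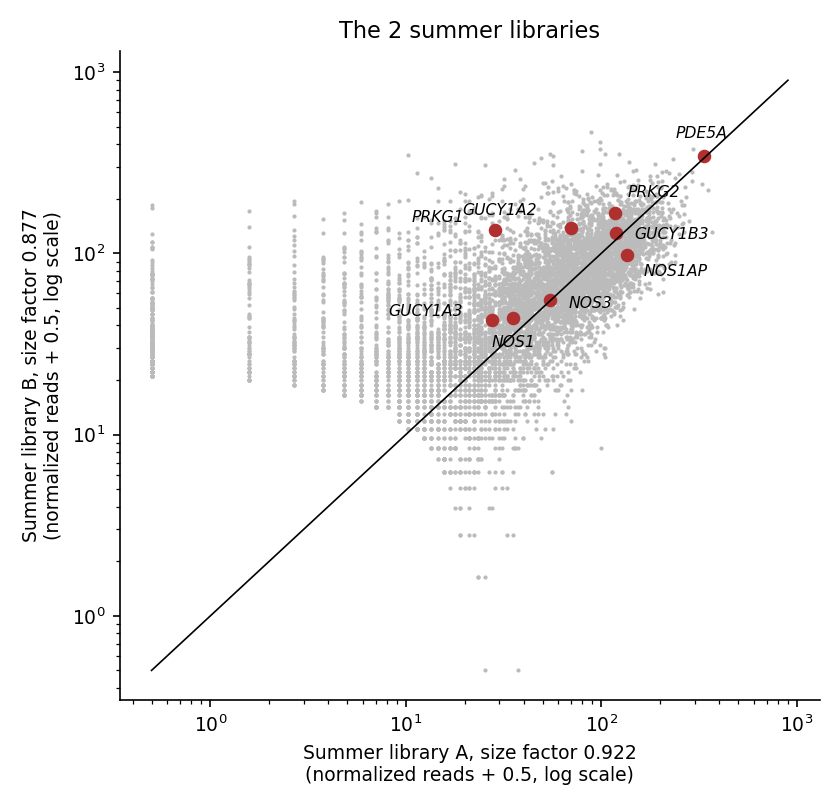
Level of each tested gene with a summer mean of at least 10 (grey) and of the 9 pathway genes with a single summer solution (red) in summer A and summer B, as normalized reads plus 0.5 on log axes, with the line of equality. PRKG1 lies 4.73-fold above the line and GUCY1A2 1.99-fold, NOS1AP lies below it, and PDE5A and NOS3 lie on it.

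Around the 10 genes, 77 further symbols of the pathway were grouped by role. Of these, 60 averaged at least 10 in either season, 22 being higher in winter and 38 in summer, where 46.2% of all symbols were higher in winter, with a median log2 ratio of −0.14 against −0.037 over all symbols. 17 of the 60 passed 1.5-fold and 4 passed 2-fold, against 22.3% and 7.23% of all symbols. Of the 35 that could be tested, 0 passed the rule and 0 reached an unadjusted p of 0.05, against 1.67% and 1.99% of the genes tested; the lowest was that of CNGB1, a cyclic nucleotide-gated channel subunit (log2 difference −0.89, −1.85 to 0.06; edgeR, adjusted p = 0.982). The seasons did not overlap for 13 of the 35, against 30.5% of the genes tested. Of the 13, 3 were higher in winter. Over all genes tested, 13.3% did not overlap and were higher in winter, and 17.2% higher in summer.

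Upstream of nitric oxide, 6 of 11 partners and regulators of the synthases were higher in winter, with a median of 0.06. HSP90AA1, the chaperone that binds NOS3, had means of 6398 in summer and 7907 in winter, and NOSTRIN, which traffics NOS3, 968.6 and 800.9. NOS2, the inducible synthase, was close to the low limit at 16.0 in summer and 6.87 in winter. Its summer libraries held 20 and 9 reads and its winter libraries 7 and 8 (log2 difference −1.25, −3.31 to 0.78; edgeR, adjusted p = 0.982) and is named after its values were seen. Among the 6 genes of arginine supply and use, 2 were higher in winter and 0 passed 1.5-fold. ARG2, the arginase of mitochondria, had means of 262.6 in summer and 229.7 in winter, SLC7A1, an arginine transporter, 279.3 and 194.7, and ASL, which makes arginine, 177.9 and 204.2. The 5 genes of the tetrahydrobiopterin cofactor had a median of −0.0061, with QDPR, which regenerates the cofactor, at 266.8 and 265.7. SPR, which completes its synthesis, was at 107.0 and 80.0.

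Around DDAH1, 4 of 8 genes that make or clear methylarginines, or remove nitric oxide and its thiol adducts, were higher in winter (median 0.03). PRMT3 and PRMT1, arginine methyltransferases, had means of 609.0 in summer and 534.3 in winter, and of 243.4 and 335.9. ADH5, which reduces S-nitrosoglutathione, had means of 238.4 and 156.4.

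The other guanylyl cyclases and the natriuretic peptide receptors held 3 of the 4 genes past 2-fold by season means, named here after their values were seen. GUCY2D and GUCY2F, the cyclases of photoreceptors, were at 37.5 and 35.1 in summer and at 14.7 and 13.2 in winter, and NPR2, the receptor for C-type natriuretic peptide, at 7.27 and 15.7. None passed the rule. GUCY2F counted 7 reads in summer A and 55 in summer B, against 14 and 15 in winter, so that its difference rested on 1 library. NPR2 counted few reads, 29 and 9 in winter A and B and 5 and 8 in summer A and B. Its winter B level (9.52 normalized reads) lay just above that of summer B (9.12), and winter A was at 21.9. NPR3, the clearance receptor, had means of 131.4 and 80.1, and GUCY2C, the receptor for guanylin, 94.6 and 100.7.

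The list of other phosphodiesterases that act on cGMP also held PDE6D and PDE6G, subunits without catalytic activity. Of its 13 genes that averaged at least 10 in either season, 4 were higher in winter and the median was −0.14. PDE3B had means of 857.7 in summer and 760.1 in winter, PDE10A 391.2 and 247.7, and PDE6D, a subunit that carries lipid-modified proteins, 188.1 and 133.6. Of the 8 that could be tested, all were higher in summer B than in summer A, 6 of them by more than 2-fold, against 61.4% and 26.3% of the 7342 tested genes with a summer mean of at least 10. PDE11A, for example, counted 16 reads in summer A and 109 in summer B, against 71 and 62 in winter, and is named after its values were seen. As for PRKG1, the winter pair lay between the summer libraries, an order whose share over all genes was not counted.

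Among the 11 effectors of cGMP and substrates of its kinase, 1 was higher in winter, against 46.2% of all symbols, with a median of −0.11. MRVI1, the kinase substrate that acts on the inositol trisphosphate receptor, was that gene (239.2 in summer and 287.9 in winter; named after its values were seen). The receptor itself, ITPR1, had means of 573.5 and 563.2, and PPP1R12A, the targeting subunit of myosin phosphatase, 592.5 and 569.0. ABCC5, a transporter that exports cGMP, had means of 1717 and 1478. 0 of the 6 tested here passed the rule.

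**Figure D4:**
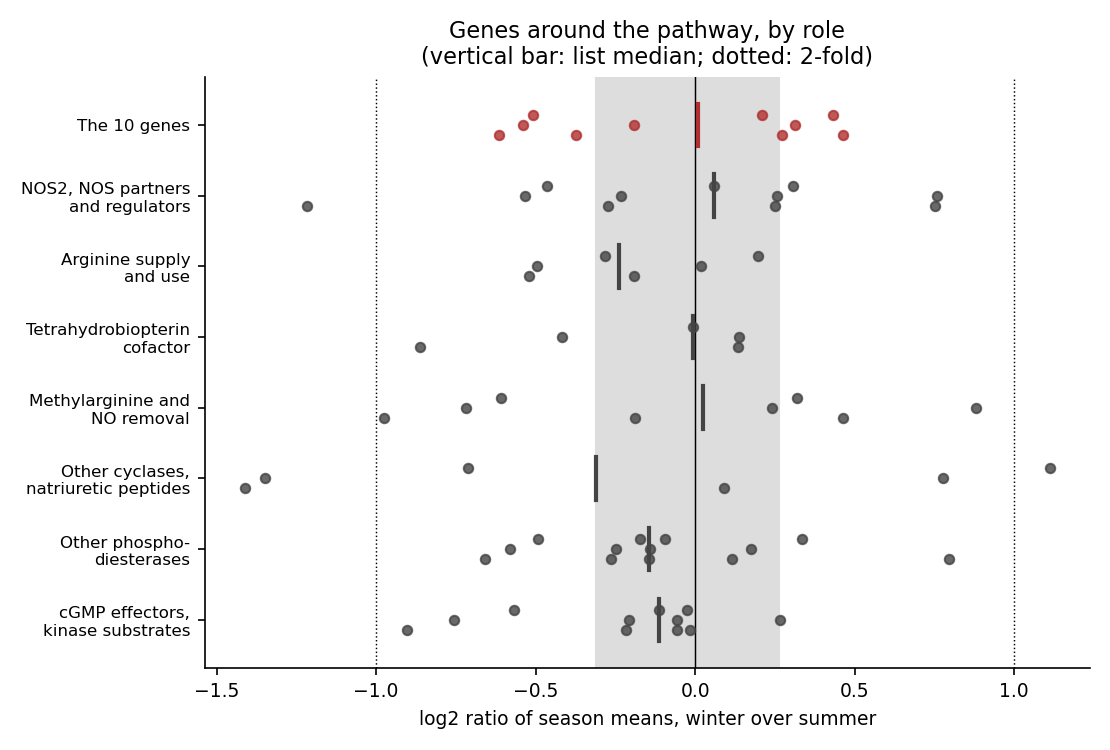
Log2 ratio of the season means, winter over summer, for the 10 genes (red) and for 60 further genes that averaged at least 10 in either season, by role; vertical bars mark list medians, dotted lines 2-fold, and the grey band the middle 50% of all symbols. The 10 genes lie between −0.62 and 0.46, and the 4 genes beyond the dotted lines are NOS2, GUCY2D and GUCY2F to the left and NPR2 to the right.

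By their season means, the samples carried the defining transcripts of their label, which does not show it for each library. The putative AVP gene, for vasopressin, had means of 11822 in summer and 2560 in winter, and OXT, for oxytocin, 592.0 and 620.6. PDYN, for prodynorphin, which vasopressin neurones also make, was lower in winter and past the rule (log2 difference −1.76, edgeR, adjusted p = 0.982), its winter libraries holding 84 and 8 reads and its summer libraries 118 and 111. SIM1 and OTP held 13 and 20 reads in winter B, against 84 and 105 in winter A. POU3F2 was alike in both, at 44.4 and 44.5 normalized reads. The study marked winter sample 3 of its peptide work on this nucleus as incorrectly isolated, and a winter library here bears the same number. Whether the 2 share an animal is not stated. Of the 6 magnocellular markers with means, 2 were higher in winter. Astrocyte markers summed to 37670 in summer and 22847 in winter, with 3 of 6 higher in winter. Oligodendrocyte markers summed to 30504 and 33598 with 4 of 5 higher in winter, and microglial markers to 2084 and 1816 with 2 of 5. Of the ependymal markers, RSPH1 alone reached a mean of 10, at 42.0 and 70.6. The part of cell composition in the levels of the 10 genes was not tested.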

How the data were processed

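RNA from the supraoptic nucleus was sequenced in 2 winter and 2 summer libraries, grouped by season from the labels. The authors used TopHat on an assembly of their own and HTSeq for counting; the deposited files hold raw counts per unnamed gene model, used here for depth and for the likeness of libraries. Tallies of reads off gene models (46.4% to 55.2% of alignments) or not uniquely aligned (20.2% to 26.9%) stayed out of the totals. In the deposited table of symbols the signal is a season average, by the authors, of counts scaled with DESeq. Its fold change and p-value columns, the authors' own edgeR comparison, were not used. Tool versions, strand setting and the merging of models into symbols are not given in the sources used here, so antisense or paralogous reads cannot be told apart.

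Each mean was solved for 2 whole read counts (relative slack 1e-07). All 16053 symbols had a solution and 9896 a single one in both seasons; of means between 10 and 50, 100% were whole, against 1.67% (winter) and 0.929% (summer) of randomly moved means. Solutions multiply with level, so tested genes are mostly those with a winter mean near or under 100. Genes averaging at least 10 in either season (7652) were fitted with edgeR 4.0.16 in R 4.3.3 (glmQLFit with legacy set to FALSE, glmQLFTest; offsets from the size factors; common coefficient of variation 0.459) with Benjamini-Hochberg adjustment. The rule was that of the study's methods, above 2-fold with an unadjusted p under 0.05. All p-values are two-sided; an exact permutation test of 2 against 2 cannot go below 0.333. Genes with several solutions were described over all of them. Within-season gaps used a pseudocount of 0.5. Scripts were tested on simulated data. Plots used matplotlib 3.10.9.

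Named were the 10 genes, the 3 of highest mean in each pathway list, every list gene past the rule and the cell type markers. Of these, 2 list genes are not reported here. The genes and lists were chosen with earlier results of these data known. Alternatives were DESeq2 1.42.0, edgeR's exact test, TMM and RLE factors, other filters, a 3-fold rule and each library left out. Poisson intervals cover counting error only.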

Additional observations from a re-analysis of the deposited data

How the results depend on the processing

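Each season had 2 libraries, with a common coefficient of variation of 0.459 between libraries, and the 95% interval of each of the 6 tested genes reached past 2-fold. None of the 6 tested genes passed an adjusted p of 0.05 under any setting in which they were fitted. The genes with several solutions were fitted only with the quasi-likelihood test on all libraries, for each combination, and none passed there. Of 52 fitted differences under settings that kept all libraries, 0 turned direction. Neither did any of 30 ratios of season means under another scaling or pseudocount, but these could not have turned. A pseudocount added to both means keeps the sign. The 2 scalings moved each log2 ratio by −0.027 and 0.037, less than the smallest ratio of the 10 genes in size (GUCY1A3, −0.19). The 52 include the combinations of solutions, which return the same season means. These counts therefore do not measure robustness. GUCY1A2 and PRKG2 could not be fitted among genes with means under 100. For the genes with several solutions, fitting each combination was added after the data were seen; the unadjusted p (edgeR) was 0.216 to 0.595 for NOS1AP, 0.517 to 0.676 for GUCY1B3, 0.130 to 0.378 for PDE5A and 0.506 to 0.787 for DDAH1.

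The 128 genes past the rule became 60 with DESeq2, 80 with a mean of 10 required in both seasons and 66 at 3-fold. The count past an adjusted p of 0.05, which was 0 in the quasi-likelihood fit (152 at an unadjusted p under 0.05), was 1 with DESeq2 and 1 with the exact test.

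With 1 library left out, its season is a lone sample assumed to vary like the other season. The count past the rule ran from 37 to 1233 and that past an adjusted p from 0 to 281, the high values being those without summer A (1233 and 281) or summer B (1077 and 225), where the spread comes from the winter pair; without winter A it was 37 and without winter B 57. The count among the 10 genes ran from 0 to 1, the 1 being PRKG1 without summer A, and that among the pathway genes from 0 to 7. The highest pathway count came without summer B, where the count over all genes was high too. The spread there rests on the winter pair alone, so that count does not single out the pathway genes. Of 24 fitted differences 4 turned direction: GUCY1A2 (0.072), GUCY1A3 (0.18) and PRKG1 (0.90) without summer B, and GUCY1A3 (0.15) without winter B. The full ranges were 0.15 to 0.67 for NOS1, 0.014 to 0.38 for NOS3, −0.92 to 0.072 for GUCY1A2, −0.64 to 0.18 for GUCY1A3, −1.34 to 0.90 for PRKG1 and −0.60 to −0.10 for PRKG2. Ratios of season means, with a library left out under any solution, ran from −1.74 to 1.30 for NOS1AP, −1.01 to 0.94 for GUCY1B3, −1.77 to 0.12 for PDE5A, −0.64 to 4.35 for DDAH1, −0.92 to 0.070 for GUCY1A2, −0.64 to 0.16 for GUCY1A3 and −1.34 to 0.90 for PRKG1.

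No paired analysis was possible because the seasons share only replicate number 2 in the labels and the recovered libraries carry no replicate number.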
